A study of Bos taurus with 60 samples.

Results

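Liver miRNAs of 20 Kinsella Composite (KC) steers were compared with those of 20 Charolais steers, which are 40 of the 60 steers sequenced in the series. All steers of both breeds were included whatever their residual feed intake (RFI) group, a measure of feed efficiency in which low-RFI animals eat less than predicted for their size and growth. Each breed had 6 low-RFI steers, 6 high-RFI steers and 8 steers without an RFI group in the labels. KC is a composite beef population bred from Angus, Charolais or Alberta Hybrid bulls and a hybrid dam line, so it may carry Charolais ancestry itself. The animals were castrated males fed a barley-based finishing diet, and the right lobe of the liver was sampled after slaughter. By the study's methods the breeds were not slaughtered at the same age, and the labels do not give the sequencing pool of a library, so breed, age and pool cannot be told apart here. The KC steers with a sire record came from 10 sires (1 steer had none) and the Charolais steers from 5, with 8 steers by the most used sire in each breed. No sire was used in both breeds, so that breed and sire are nested. Liver pieces are bulk tissue, in which fewer cells of a type and less RNA per cell cannot be told apart.

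Counts were deposited for pairs of a mature miRNA and a precursor. Only the 1155 pairs listed for both breeds were used, since another 52 pairs were listed for KC alone, and a mature miRNA with more than 1 precursor was given the mean of its counts. Of the 1030 mature miRNAs listed, 790 had a count in at least 1 of the 40 steers, and 408 reached 1 CPM (counts relative to the library total) in at least 10 steers and were tested. The filter was passed within each breed by 364 of them, only through KC by 12, only through Charolais by 6 and only by both breeds together by 26. The 6 miRNAs that reached 1 CPM in exactly 10 steers averaged 0.748 to 0.854 CPM, and the 2 that did so in 9 steers and were not tested averaged 0.598 and 0.804 CPM. Library totals were 3631180 to 6751781 counts in KC (median 5538045.5) and 2237959 to 6019099 in Charolais (median 4405876.5), so the KC libraries were the deeper ones. At these totals 3 counts equal 0.444 to 1.341 CPM, a floor that covers counting error only. Spearman correlations were 0.956 to 0.979 between KC steers, 0.934 to 0.98 between Charolais steers and 0.934 to 0.979 between breeds. The Charolais libraries with the lowest and the highest total (replicates 1 and 16) stood apart, with a median correlation with the other Charolais of 0.956 and 0.953. The scaling factor of edgeR's TMM normalization was 1.11 in replicate 1 and 0.669 in replicate 16, against 0.87 to 1.12 in the other 38 libraries. The hepatocyte miRNA miR-122 was present in every library, at 5859 to 11561 CPM in KC and 6262 to 18109 CPM in Charolais.

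A miRNA acts through its seed, bases 2 to 8 of the mature strand, which pairs with messenger RNAs and lowers their stability and translation. miRNAs with a common seed form a family and can share targets, and neighbouring miRNA genes are often made from a single primary transcript. In the liver, miR-122 and the miR-192 family are abundant hepatocyte miRNAs, and let-7 is a widely expressed family known for its link to cell differentiation and glucose metabolism. The miR-2284 and miR-2285 families are large groups of closely related sequences found in ruminants.

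The mature sequences of the miRNAs on which the comparison turned are given first, from the study's own sequence list, with the seed in capitals. The let-7 family is shown because 8 of its 9 members with this seed passed the test described below as lower in KC. let-7g, also lower, did not pass.
bta-let-7a-5p: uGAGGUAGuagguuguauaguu
bta-let-7b: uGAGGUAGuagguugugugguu
bta-let-7c: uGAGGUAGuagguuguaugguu
bta-let-7d: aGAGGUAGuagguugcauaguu
bta-let-7e: uGAGGUAGgagguuguauagu
bta-let-7f: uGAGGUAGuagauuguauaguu
bta-let-7g: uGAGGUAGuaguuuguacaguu
bta-let-7i: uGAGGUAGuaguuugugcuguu
bta-miR-98: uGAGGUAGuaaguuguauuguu

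miR-215 and miR-192 share a seed but did not give the same result, and are shown together for that reason.
bta-miR-215: aUGACCUAugaauugacagaca
bta-miR-192: cUGACCUAugaauugacagccag

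The miRNAs of the miR-99/100 seed and of the miR-125 seed include the 4 most abundant miRNAs that were higher in KC.
bta-miR-100: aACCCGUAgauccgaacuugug
bta-miR-99b: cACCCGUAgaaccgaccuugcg
bta-miR-99a-5p: aACCCGUAgauccgaucuugu
bta-miR-125a: uCCCUGAGacccuuuaaccugug
bta-miR-125b: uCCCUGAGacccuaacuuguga

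The ruminant family members are shown because their near-identical sequences bear on how reads are counted for them. Another reason is that miR-2285k and miR-2285i share a seed and differed in opposite directions.
bta-miR-2284b: aAAAGUUCguuugguuuuuuc
bta-miR-2284y: aAAAGUUCguucggguuuuuc
bta-miR-2284k: gAAAAGUUcggucggguuuuu
bta-miR-2284j: gAAAAGUUcguucagguuuu
bta-miR-2284x: uGAAAAGUucguucggguuuu
bta-miR-2285k: aAAACCGGaaugaacuuuuug
bta-miR-2285i: aAAACCGGaacgaacuuuuugg

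A sequence was found for 406 of the 408 tested miRNAs, and for all 50 that differed between the breeds. Those 50 carried 38 different seeds, of which 6 were carried by at least 2 of them. Only the seed of miR-2285k and miR-2285i held miRNAs that were higher and lower in KC. For 21 of the 50, another listed miRNA had a near-identical mature sequence (at least 18 bases aligned with at most 1 mismatch, starts shifted by at most 2 bases). Reads may be counted for more than 1 of such partners, so their counts may not be independent.

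At an adjusted p-value under 0.05 by edgeR's quasi-likelihood test, 50 of 408 miRNAs (12.3%) differed between the breeds. Of these, 15 (3.68% of those tested) were higher in KC and 35 (8.58%) were lower. Differences were small, with a median fold of 1.34, and 11 miRNAs (2.7%) differed by more than 1.5-fold, 4 of them higher and 7 lower in KC. Among these 11 are miR-190a, miR-2285at, miR-374c and miR-2284j, which passed the filter on low counts only through the breed where they were high, so a difference between the breeds was built into their being tested. Of the 50 miRNAs, 14 averaged over 1000 CPM and 12 under 5 CPM. In 0 of the 408 miRNAs were the steers of the breeds fully separated. The median log2 fold change (KC minus Charolais) over all tested miRNAs was -0.03. The split between directions depended on how libraries were scaled. With the scaling of DESeq2, 19 were higher and 28 lower, and with library totals alone 30 were higher and 17 lower, while the median over all miRNAs moved by no more than 0.1. The share called was 4.69% without a filter on low counts, 8.33% after thinning to equal depth, 7.35% with sire as a random block, 4.17% with the library total as a term and 9.8% without Charolais replicates 1 and 16. It was 0.735% both without the progeny of the most used sire of each breed and with counts summed per sire.

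**Figure D1:**
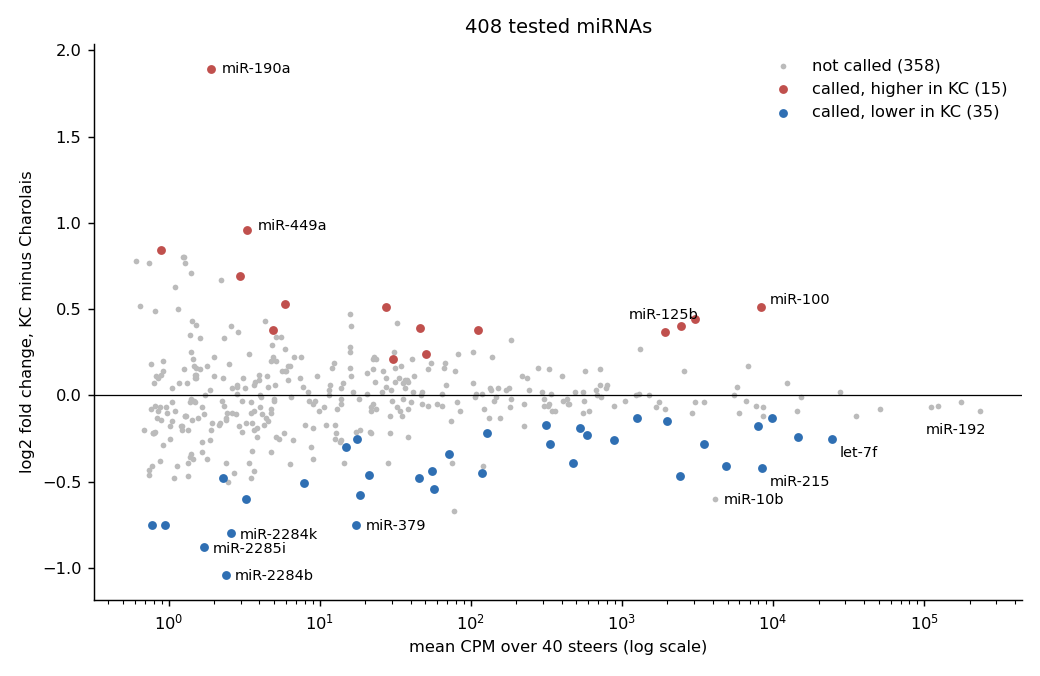
Log2 fold change (KC minus Charolais) of each of the 408 tested miRNAs against its mean CPM over the 40 steers on a log axis. Red and blue points mark the 15 miRNAs that were higher and the 35 that were lower in KC, and most of the abundant ones among them lie within 0.6 of 0.

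miR-215 had the smallest p-value of the comparison. It is processed from a gene that lies beside miR-194 genes in RefSeq's ARS-UCD2.0 annotation, in the order MIR215, MIR194-1 and MIR194B, and is known as a liver and intestinal miRNA of the miR-192 family. miR-215 measured 5939, 7372 and 8117 CPM in the lowest, median and highest KC steer, and 7997, 9805 and 11327 CPM in Charolais. Thus 18 of 20 KC steers lay below every Charolais steer, and all 20 lay below the Charolais median. The log2 fold change was -0.42 (SE 0.05, 1.34-fold lower in KC, adjusted p = 1.4e-08).

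miR-192, which shares the seed of miR-215 and was the most abundant miRNA in the liver, measured 196589, 231420 and 257129 CPM in KC and 200305, 241672 and 288727 CPM in Charolais. Here the breeds overlapped widely, and the log2 fold change of -0.09 (SE 0.04) did not pass the test (adjusted p = 0.228). miR-194, whose genes neighbour those of both, gave -0.08 (SE 0.05, adjusted p = 0.32). A ratio of counts within a library needs no scaling. The ratio of miR-215 to miR-192 was 0.0289, 0.032 and 0.0339 in the lowest, median and highest KC steer, and 0.033, 0.0404 and 0.0424 in Charolais. By this ratio, 18 of 20 KC steers were below every Charolais steer. Against miR-194, the ratio of miR-215 was 2.86 to 4.58 in KC (median 3.95) and 3.45 to 6.65 in Charolais (median 5.02). All 20 KC steers were below that Charolais median. miR-215 was already called in these steers while miR-192 and miR-194 were not, so both ratios were bound to differ and are no separate evidence.

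By median, miR-215 was lower in the progeny of each KC sire than in the progeny of any Charolais sire. The medians of the 10 KC sires ran from 6447 to 8117 CPM and those of the 5 Charolais sires from 8648 to 10640 CPM, without overlap. For most KC sires this median is the value of a single steer, and single steers of the breeds did overlap. With counts summed per sire, the log2 fold change of miR-215 was -0.36 (adjusted p = 0.00725), and without the steers of the most used sire of each breed it was -0.33 (adjusted p = 0.0065). The log2 fold change was -0.36 among low-RFI steers, -0.47 among high-RFI steers and -0.38 among steers without an RFI group. The call was also kept with the library total as a term (adjusted p = 3.16e-07) and in each fit that left out 1 steer (highest adjusted p = 7.84e-07).

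**Figure D2:**
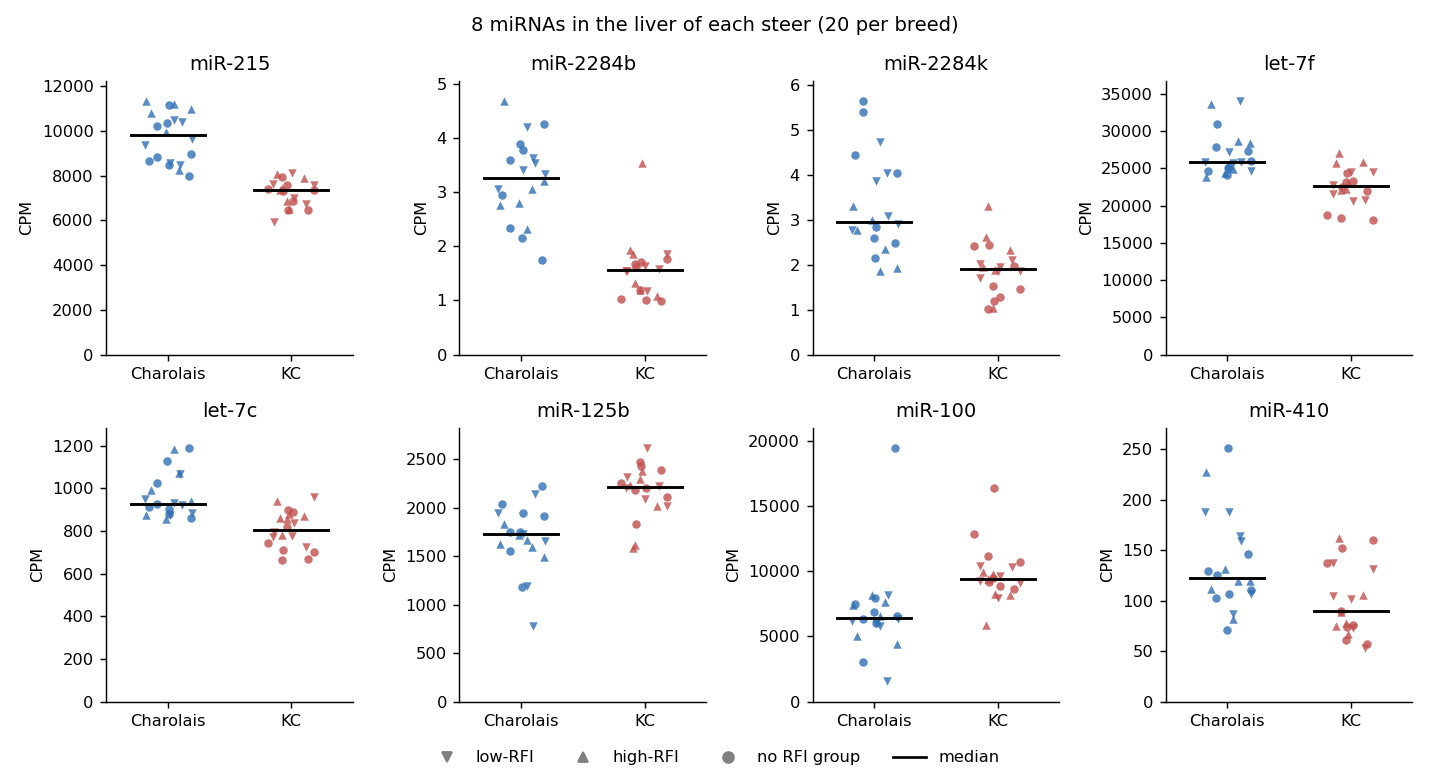
CPM of 8 miRNAs in each of the 20 Charolais (blue) and 20 KC (red) steers, with the RFI group as the marker shape and the breed median as a black line, on axes that start at 0. miR-215 separates all but 2 KC steers from Charolais, while miR-410 overlaps widely and miR-100 has Charolais steers at both the bottom (1612 CPM) and the top (19408 CPM).

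Most members of the let-7 family were lower in KC. Of the 10 tested members of the let-7 and miR-98 list, 8 were lower in KC and 0 higher, where 8.58% of all tested miRNAs were lower, and the median log2 fold change of the list was -0.20 against -0.03 over all. These 8 miRNAs were let-7a-5p, let-7b, let-7c, let-7d, let-7e, let-7f, let-7i and miR-98. Among them, let-7a-5p is near-identical in sequence to let-7c, let-7e and let-7f, and let-7b to let-7c. Their counts may share reads, so the 8 are not independent of each other. The others were let-7g (-0.10, adjusted p = 0.134) and let-7a-3p, the passenger strand (0.14, adjusted p = 0.372). The summed level of the list was 34118 to 47474 CPM in KC (median 41333) and 42683 to 58902 CPM in Charolais (median 46554).

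let-7f, the most abundant member, measured 18111, 22615 and 27079 CPM in the lowest, median and highest KC steer and 23843, 25893 and 33984 CPM in Charolais. Below every Charolais steer were 14 of the 20 KC steers. The log2 fold change of let-7f was -0.25 (SE 0.05, adjusted p = 0.000596). let-7c measured 664, 806 and 957 CPM in KC and 857, 927 and 1187 CPM in Charolais, a log2 fold change of -0.26 (SE 0.05, adjusted p = 0.000596). let-7e had the smallest p-value of the family, with 243, 311 and 358 CPM in KC and 306, 372 and 466 CPM in Charolais (-0.28, SE 0.05, adjusted p = 0.00032), and all 20 KC steers below the Charolais median. let-7i (-0.28, adjusted p = 0.00215), miR-98 (-0.23, adjusted p = 0.00357) and let-7d (-0.17, adjusted p = 0.00807) followed. let-7a-5p and let-7b differed least, at -0.13 each (adjusted p = 0.0279 and 0.0388), and lost the call in 16 and 26 of the 40 fits that left out 1 steer.

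The direction of the let-7 difference was the same under each scaling tried, with 5 to 8 members called, and 4 were called with the library total as a term. It was smaller outside the largest families. Without the progeny of the most used sire of each breed, the median of the list was -0.08, let-7f was at -0.07 (adjusted p = 0.471), and 0 members were called in the 24 steers left. With counts summed per sire, the median was -0.10 and again 0 members were called. By sire, let-7f had medians of 20786 to 27079 CPM in KC and 24081 to 28545 CPM in Charolais, and the highest Charolais median was that of the most used sire.

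Several let-7 genes lie next to genes of the miR-99/100 and miR-125 families, and the called neighbours at these places differed in opposite directions. In RefSeq's ARS-UCD2.0 annotation the neighbours are MIR99B, MIRLET7E and MIR125A at the first place, MIR125B-2, MIRLET7C and MIR99A at the second, and MIR125B-1, MIRLET7A-2 and MIR100 at the third. This arrangement was looked up after the values were seen, and several of these mature miRNAs are made from more than 1 gene. At the second place let-7c was lower (-0.26), while miR-99a-5p did not pass the test (0.27, SE 0.15, adjusted p = 0.27). At the first place let-7e was lower in KC (-0.28) while miR-99b (0.44) and miR-125a (0.40) were higher. The ratio of let-7e to miR-125a within a library was 0.0906, 0.108 and 0.16 in the lowest, median and highest KC steer and 0.112, 0.167 and 0.448 in Charolais. By this ratio 12 KC steers were below every Charolais steer and all 20 below the Charolais median. Since let-7e and miR-125a were already called in opposite directions in these steers, their ratio was bound to differ and is no separate evidence. The same holds for let-7e with miR-99b and for let-7a-5p with miR-100. The ratio of let-7e to miR-99b separated the breeds less, at 0.0542 to 0.146 in KC (median 0.0862) and 0.0598 to 0.683 in Charolais (median 0.138), with 1 KC steer below every Charolais steer and 19 below the Charolais median. The ratio of miR-125a to miR-99b, both higher in KC, was 0.598 to 1.03 in KC (median 0.802) and 0.534 to 1.52 in Charolais (median 0.875). By this ratio 0 KC steers were below every Charolais steer and 13 below the Charolais median. At the second place the ratio of let-7c to miR-99a-5p had a median of 0.596 in KC and 0.837 in Charolais, and at the third the ratio of let-7a-5p to miR-100 had a median of 1.01 in KC and 1.57 in Charolais, with 19 of 20 KC steers below the Charolais median in both but 0 below every Charolais steer.

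Of the 8 tested members of the miR-10, miR-99, miR-100 and miR-125 list, 4 were higher in KC (miR-100, miR-99b, miR-125a and miR-125b) and 0 lower, where 3.68% of all tested miRNAs were higher. These miRNAs are known from hematopoietic and developmental regulation. The median log2 fold change of the list was 0.32. miR-100 measured 5864, 9422 and 16337 CPM in the lowest, median and highest KC steer and 1612, 6444 and 19408 CPM in Charolais, a log2 fold change of 0.51 (SE 0.15, adjusted p = 0.0251). Although the ranges overlap fully, 19 of 20 KC steers were above the Charolais median. miR-99b (2446, 3393 and 5331 CPM in KC, 682, 2496 and 6354 CPM in Charolais) gave 0.44 (SE 0.14, adjusted p = 0.0279). miR-125a measured 2086, 2841 and 3638 CPM in KC and 1039, 2294 and 3393 CPM in Charolais (0.40, SE 0.09, adjusted p = 0.00267). miR-125b had the smallest p-value among the miRNAs higher in KC, with 1583, 2216 and 2610 CPM in KC and 775, 1723 and 2225 CPM in Charolais (0.37, SE 0.08, adjusted p = 0.00238), and 10 KC steers lay above every Charolais steer.

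The calls of these 4 miRNAs depended on how the library total was handled. The KC libraries were the deeper ones, so breed and library total cannot be fully told apart. A relation to the total within a breed was not tested. The Charolais library with the lowest total had the lowest miR-100, miR-99b, miR-125a and miR-125b of the breed (1612, 682, 1039 and 775 CPM), and the library with the highest total had the highest (19408, 6354, 3393 and 2225 CPM). Among the other 18 Charolais steers miR-100 ran from 3077 to 8163 CPM, and 18 of 20 KC steers were above all of them. Without these 2 Charolais libraries the adjusted p-value was 1.4e-05 for miR-100, 4.37e-05 for miR-99b and 4.66e-05 for miR-125a and for miR-125b. With the library total as a term, in contrast, the median of the list was 0.13 and 0 of its members were called, with adjusted p-values of 0.212 for miR-100, 0.299 for miR-99b, 0.0642 for miR-125a and 0.0547 for miR-125b. After thinning all libraries to equal depth, 4 members of the list were still higher in KC and 0 lower, with a median of 0.35. With counts summed per sire, 0 members were called (median 0.27), and the adjusted p-values of the 4 ran from 0.0821 to 0.275. Without the largest families 0 were called as well (median 0.19), with adjusted p-values of the 4 from 0.0933 to 0.341. miR-10b, a list member that did not pass the test, was at 52525 CPM in Charolais replicate 16 and at most 3991 CPM in the other 19 Charolais steers. Its log2 fold change was -0.60 with that library (adjusted p = 0.302) and 0.43 without it (adjusted p = 0.0557).

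**Figure D3:**
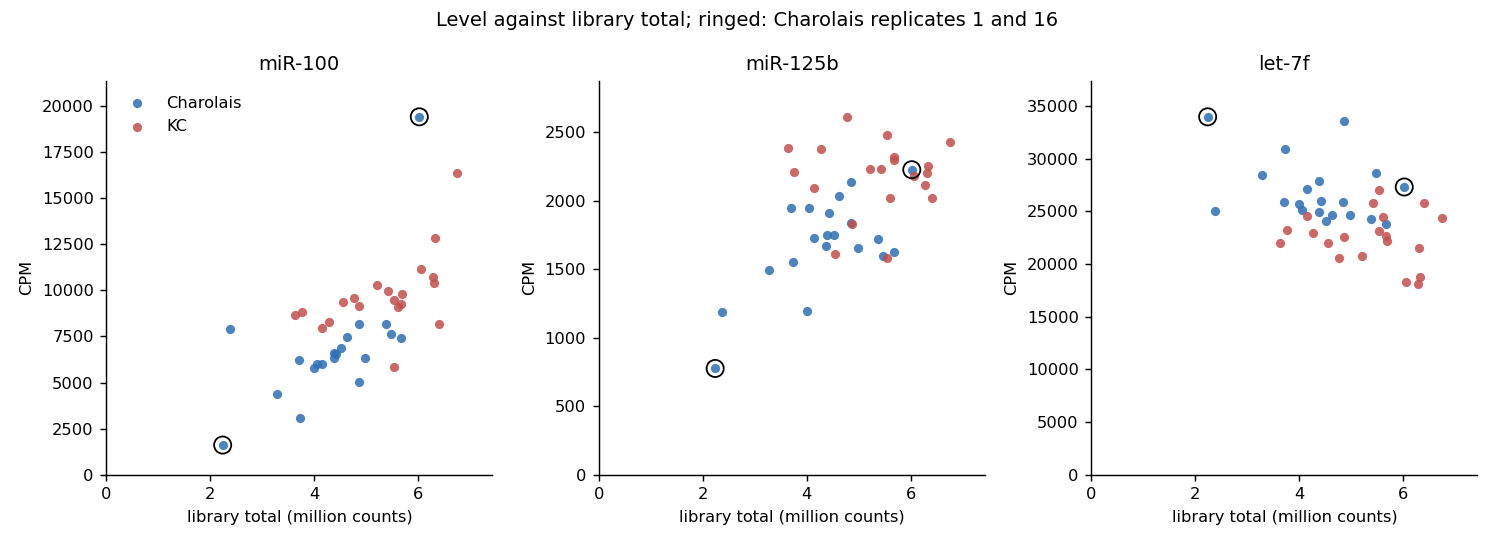
CPM of miR-100, miR-125b and let-7f in each steer against its library total, for Charolais (blue) and KC (red), with axes from 0. The ringed Charolais libraries 1 and 16 hold the lowest and highest miR-100 (1612 and 19408 CPM), and the KC libraries lie at higher totals than most of the Charolais libraries.

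The imprinted DLK1-DIO3 region holds a large miRNA cluster that is transcribed from the maternal chromosome. Of its 58 listed members, 36 were tested, of which 9 were lower in KC and 0 higher, where 8.58% of all tested miRNAs were lower and 3.68% higher. The log2 fold change was below 0 for 34 of the 36, and its median was -0.38 against -0.03 over all tested miRNAs. The members share a transcript, so these counts are not independent of each other. The summed level was 3813, 6127 and 11196 CPM in the lowest, median and highest KC steer, and 5091, 7965 and 16313 CPM in Charolais, which shows wide overlap.

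miR-127, the most abundant of these miRNAs, measured 2375, 3840 and 7383 CPM in KC and 3339, 4890 and 10355 CPM in Charolais, a log2 fold change of -0.41 (SE 0.14, adjusted p = 0.0388), and lost the call in 22 of the 40 fits that left out 1 steer. miR-411a measured 1177, 1924 and 3270 CPM in KC and 1376, 2505 and 4786 CPM in Charolais (-0.47, SE 0.14, adjusted p = 0.0235). For both, 15 or more KC steers were below the Charolais median, at 15 and 16 of 20. miR-432 measured 7.17, 12.8 and 26.5 CPM in KC and 13.8, 18.1 and 43.4 CPM in Charolais (-0.58, SE 0.16, adjusted p = 0.0184), with 12 KC steers below every Charolais steer. miR-380-3p (-0.48, adjusted p = 0.0249), miR-411c-5p (-0.46, adjusted p = 0.0213), miR-410 (-0.45, adjusted p = 0.0388), miR-154c (-0.44, adjusted p = 0.0447) and the rare miR-154b (-0.60, adjusted p = 0.0345) were the others. Of these, miR-410, miR-154c and miR-154b lost the call in 23, 29 and 13 of the 40 fits.

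miR-379 had the largest change of this cluster, -0.75 (SE 0.23, adjusted p = 0.0279), but 1 library decided its call. It measured 6.43, 12.1 and 26.5 CPM in KC and 10.6, 16.9 and 112 CPM in Charolais, where the highest value belongs to replicate 16, and without that steer the adjusted p was 0.103. The number of cluster members called was less stable than their direction. It ranged from 4 to 11 in the fits that left out 1 steer, fell to 4 without Charolais replicate 16, and to 5 without any 1 of Charolais replicates 6, 7, 11, 14, 17 and 20 or KC replicates 8, 11, 14, 15 and 19. Without Charolais replicates 1 and 16 together it was 3, and with sire as a random block it was 4. The median of the list stayed close to its value without the largest families (-0.39) and with counts summed per sire (-0.38), with 0 members called in either.

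**Figure D4:**
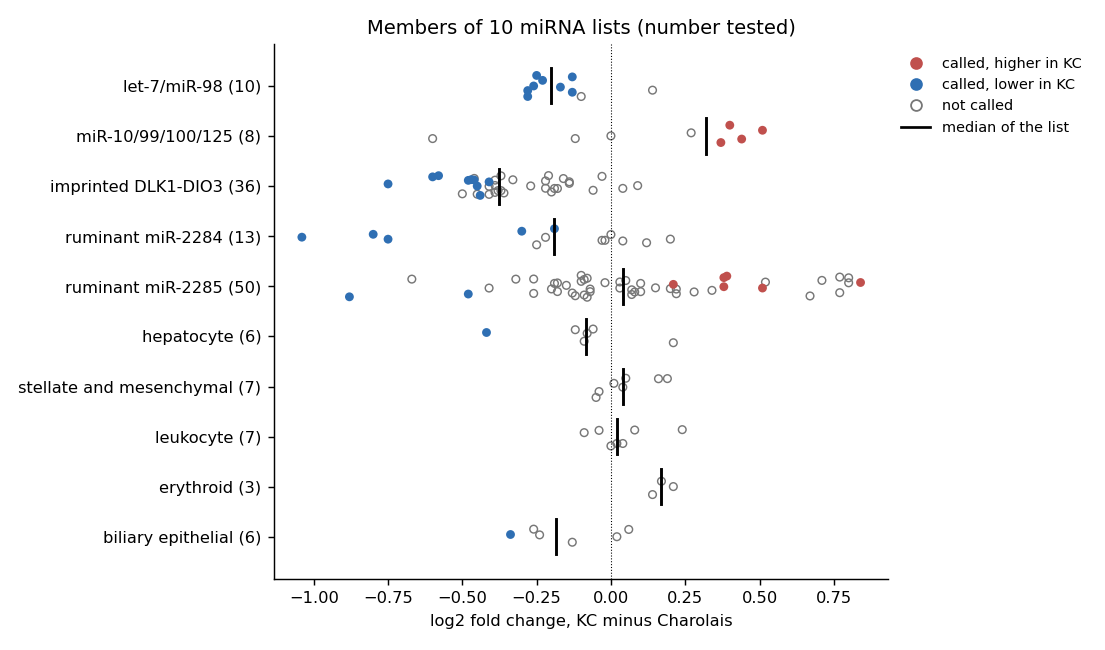
Log2 fold change (KC minus Charolais) of each tested member of 10 miRNA lists, with the number tested in brackets, filled points for those at an adjusted p-value under 0.05 and a black bar at the list's median. The medians of the let-7 and DLK1-DIO3 lists lie to the left of 0 (-0.20 and -0.38), with 1 and 2 of their members to the right of it, and that of the miR-10, miR-99, miR-100 and miR-125 list lies to the right (0.32). Among the cell type lists the median runs from -0.18 (biliary epithelial) to 0.17 (erythroid).

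Of the 13 tested members of the miR-2284 family (31 listed), 5 were lower in KC (miR-2284b, miR-2284k, miR-2284x, miR-2284y and miR-2284j) and 0 higher, where 8.58% of all tested miRNAs were lower. The median log2 fold change of the family was -0.19, but it was 0.05 without the largest families, 0.03 with counts summed per sire (2 members lower in each), -0.01 with the library total as a term (3 lower) and 0.00 with all pairs as deposited (3 higher and 4 lower). miR-2284b had the second smallest p-value of the comparison. It measured 0.982, 1.56 and 3.55 CPM in the lowest, median and highest KC steer and 1.74, 3.27 and 4.68 CPM in Charolais. These levels rest on 4 to 17 counts in a KC library and 5 to 22 in a Charolais library. Below every Charolais steer were 15 of the 20 KC steers. The log2 fold change was -1.04 (SE 0.13, 2.06-fold lower in KC, adjusted p = 1.29e-07). miR-2284k measured 1.01, 1.91 and 3.3 CPM in KC and 1.86, 2.95 and 5.63 CPM in Charolais (-0.80, SE 0.14, adjusted p = 0.000211). Both were also lower with counts summed per sire (adjusted p = 0.0347 and 0.0185) and without the largest families (adjusted p = 0.015 and 0.0065). With miR-215, they were the 3 miRNAs called in those fits.

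miR-2284x was far more abundant, at 441, 491 and 625 CPM in KC and 481, 568 and 684 CPM in Charolais (-0.19, SE 0.04, adjusted p = 0.00267). miR-2284y measured 10.3, 13.5 and 19.6 CPM in KC and 12.3, 16.9 and 23.1 CPM in Charolais (-0.30, SE 0.08, adjusted p = 0.00753). Its direction rests on the pairs used. With the pairs listed for KC alone included, its log2 fold change was 2.17 (adjusted p = 8.96e-31). miR-2284j was near the floor (median 0.562 CPM in KC and 0.994 CPM in Charolais) and passed the filter only through Charolais. Near-identical mature sequences were listed for each of the 5, from 1 for miR-2284b to 13 for miR-2284y.

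In the miR-2285 family, 50 of 117 listed members were tested, of which 6 were higher (miR-2285at, miR-2285bn, miR-2285ce, miR-2285cj, miR-2285cy and miR-2285k) and 2 lower in KC (miR-2285dl-3p and miR-2285i), beside 3.68% higher and 8.58% lower of all tested miRNAs. With sire as a random block, 3 were higher and 1 lower. The median of 0.04 lay near that of all miRNAs. miR-2285k measured 88.3, 120 and 193 CPM in KC and 50.4, 90.3 and 233 CPM in Charolais (0.38, SE 0.12, adjusted p = 0.0279), and miR-2285bn 40.4, 51 and 79.5 CPM in KC against 18.1, 39 and 88.9 CPM in Charolais (0.39, SE 0.11, adjusted p = 0.0246). miR-2285cj measured 20.1, 30.4 and 58.6 CPM in KC and 6.45, 20.4 and 72.2 CPM in Charolais (0.51, SE 0.16, adjusted p = 0.0316). Its lowest and highest Charolais values were those of replicates 1 and 16, as for miR-100. miR-2285cy (0.38, adjusted p = 0.0279) and miR-2285ce (0.21, adjusted p = 0.0319) followed. miR-2285ce lost the call without Charolais replicate 2 (adjusted p = 0.0522).

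With the library total as a term, 0 of the 50 miR-2285 members were called, whereas 7 were higher and 0 lower after thinning to equal depth. miR-2285i (-0.88, SE 0.29, adjusted p = 0.0372) was rare, with a median of 1.05 CPM in KC and 1.76 CPM in Charolais, and its log2 fold change was -0.12 without the largest families. miR-2285dl-3p gave -0.48 (adjusted p = 0.0257) and lost the call without Charolais replicate 6 or 8. The number higher in KC ran from 4 to 12 in the fits that left out 1 steer, with 10 to 12 without any 1 of Charolais replicates 6, 8, 11 and 13 or KC replicates 2, 4, 8, 18 and 19. miR-2285at (0.84, adjusted p = 0.0447) passed the filter only through KC, with a median of 1.13 CPM there and 0.468 CPM in Charolais. Leaving out 1 steer ended the call of miR-2285at in 21, of miR-2285i in 14 and of miR-2284j in 11 of the 40 fits.

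miR-190a had the largest fold change, and a single family carried it. It measured 0.343, 1.2 and 10.8 CPM in the lowest, median and highest KC steer and 0, 0.768 and 1.74 CPM in Charolais, a log2 fold change of 1.89 (SE 0.46, adjusted p = 0.00531). Above every Charolais steer were 5 KC steers at 7.33 to 10.8 CPM, all 5 of them among the 8 progeny of the most used KC sire, while the other 15 KC steers had at most 1.47 CPM. Of these 5 steers 3 were high-RFI, 2 had no RFI group and 0 were low-RFI. Without the largest families the log2 fold change was -0.07 (adjusted p = 0.941), and among low-RFI steers it was -0.19. It passed the filter on low counts only through KC.

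miR-449a, of the miR-34 seed family known from ciliated epithelia, varied widely between KC steers, also among the 8 progeny of the most used sire (1.1 to 8.09 CPM). It measured 0.626, 3.06 and 11 CPM in KC and 0.662, 1.89 and 13 CPM in Charolais, and gave 0.96 (SE 0.33, adjusted p = 0.0445). The ranges overlap almost wholly, and the call was lost in 19 of the 40 fits that left out 1 steer.

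**Figure D5:**
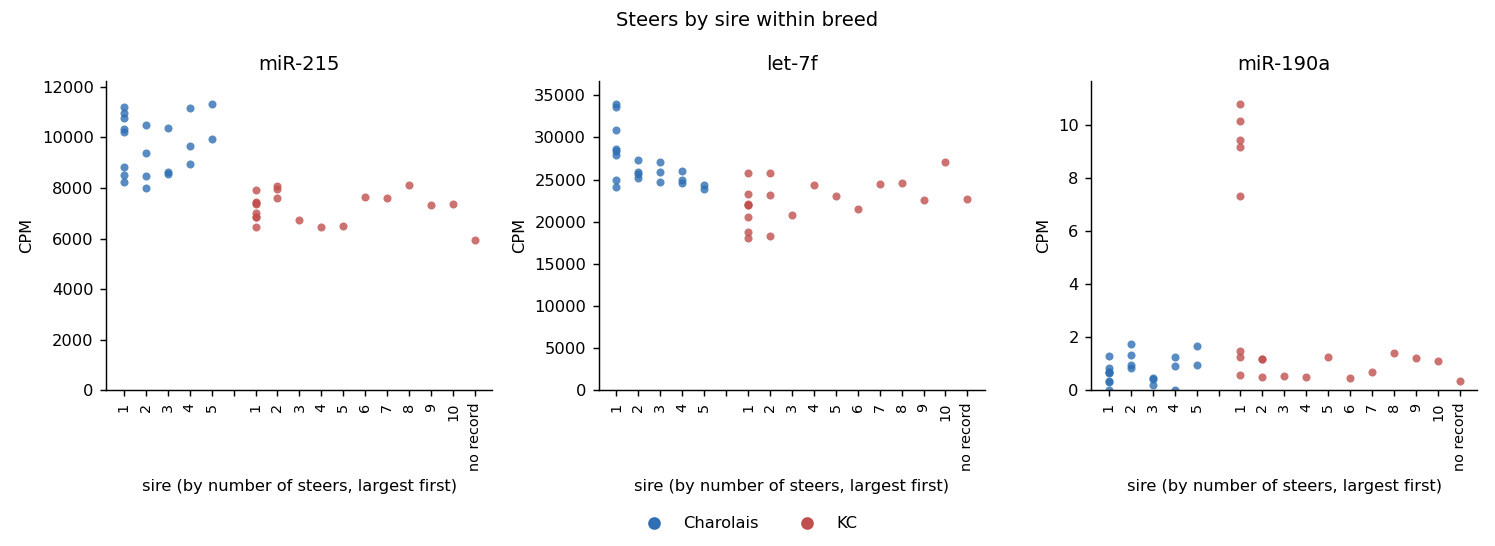
CPM of miR-215, let-7f and miR-190a in each steer, arranged by sire within Charolais (blue) and KC (red), with sires ordered by their number of steers and axes from 0. miR-215 is lower in KC for each sire by median, though most KC sires have a single steer. let-7f is highest in the progeny of the first Charolais sire (median 28545 CPM), and the 5 high values of miR-190a (7.33 to 10.8 CPM) all belong to the first KC sire.

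Further miRNAs lower in KC came from several groups. miR-21-5p, an abundant miRNA known from inflammation and fibrosis, measured 10677, 13341 and 18740 CPM in KC and 10805, 15097 and 24041 CPM in Charolais (-0.24, SE 0.08, adjusted p = 0.0388), and lost the call in 24 of the 40 fits that left out 1 steer. miR-182, an epithelial miRNA of the miR-183 cluster, measured 206, 408 and 797 CPM in KC and a median of 532 CPM in Charolais (-0.39, SE 0.11, adjusted p = 0.0207), with 19 of 20 KC steers below the Charolais median. miR-375, known from epithelia and pancreatic islets, measured 44.2, 65.1 and 89.9 CPM in KC and 53.1, 75.9 and 159 CPM in Charolais (-0.34, SE 0.11, adjusted p = 0.0348). It lost the call in 15 of the 40 fits that left out 1 steer and with sire as a random block (adjusted p = 0.0754). It was the only 1 of 6 tested miRNAs on the biliary epithelial list to be called, beside 12.3% of all tested miRNAs. The median of that list was -0.18. miR-1839 measured 100, 119 and 133 CPM in KC and 115, 137 and 157 CPM in Charolais (-0.22, SE 0.04, adjusted p = 0.000679), and all 20 KC steers were below the Charolais median. miR-10172-3p (24.4, 44.6 and 70 CPM in KC, 23.6, 65.4 and 133 CPM in Charolais) gave -0.54 (adjusted p = 0.0213).

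Smaller changes were those of miR-25 of the miR-17-92 paralogues (-0.15, adjusted p = 0.0356), miR-181a (-0.18, adjusted p = 0.0446) and miR-378b (-0.25, adjusted p = 0.0394), which lost the call in 17, 29 and 26 of the fits that left out 1 steer. miR-11977 (-0.51, adjusted p = 0.00753) was the only 1 called of 15 tested on a list of recently named cattle miRNAs, beside 12.3% of all tested. The rare miR-374c (-0.75, adjusted p = 0.0249) passed the filter only through Charolais. Higher in KC were also miR-1343-3p (2.62, 6.77 and 10.6 CPM in KC, 1.87, 4.68 and 8.29 CPM in Charolais, 0.53, adjusted p = 0.0246), miR-874 (0.24, adjusted p = 0.0443) and miR-6521 (0.69, adjusted p = 0.0388), of which miR-874 and miR-6521 lost the call in 14 and 8 of the fits that left out 1 steer.

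Most of the abundant liver miRNAs did not pass the test. The 10 most abundant were miR-192, miR-143, miR-148a, miR-30a-5p, miR-26a, miR-22-3p, miR-27b, let-7f, miR-126-5p and miR-21-5p, and they took 80.6% ± 0.86 (SD, n = 20 steers) of the tested counts in KC and 81% ± 0.83 (SD, n = 20) in Charolais. Of these, let-7f and miR-21-5p were called, beside 12.3% of all tested miRNAs. The other 8 had log2 fold changes between -0.12 (miR-22-3p, adjusted p = 0.271) and 0.02 (miR-27b, adjusted p = 0.858).

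Lists of miRNAs known from single cell types mostly held no called members. Of the 6 tested hepatocyte miRNAs, miR-215 was the only one called, and the median of the list was -0.08. None of the 3 erythroid (median 0.17), 7 leukocyte (0.02), 2 endothelial (-0.03), 7 stellate and mesenchymal (0.04) and 4 muscle miRNAs (0.12) was called. The summed erythroid level was 3898 to 13941 CPM in KC and 3410 to 11763 CPM in Charolais, the leukocyte level 4205 to 6926 CPM and 4703 to 6501 CPM, and the muscle level 28.3 to 58.7 CPM and 23.4 to 62.3 CPM. Each list's levels overlapped between the breeds. The families of miR-33, miR-103, miR-148, miR-193, miR-29, miR-30, miR-26, miR-23, miR-15, miR-424, miR-130 and miR-221, several of them known from lipid metabolism and growth, held 0 called members, and their medians lay between -0.08 and 0.16. Each of these families is small, so 0 called members lies near the 12.3% called of all tested miRNAs. Another list of 25 tested miRNAs described in cattle held 0 as well.

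Whether the breed difference depended on feed efficiency was tested in the 24 steers with an RFI group. By edgeR's quasi-likelihood test, 0 of 408 miRNAs (0%) showed an interaction of breed and RFI group at an adjusted p-value under 0.05, and 23 did at an unadjusted p-value under 0.05. The likelihood-ratio test gave 0 and 25. Some unadjusted p-values under 0.05 arise without any interaction. Each breed had 6 steers per RFI group, and the power of this test was not measured. The 0 calls therefore do not show that the breed difference is the same in both RFI groups. The smallest p-value was that of miR-450a, for which the breed difference was 0.90 higher on the log2 scale in low-RFI than in high-RFI steers (adjusted p = 0.674). Within RFI groups, 49 of the 50 called miRNAs had the same sign in low-RFI, high-RFI and ungrouped steers, which are parts of the same 40 steers. The exception was miR-190a. These miRNAs were called for a difference in the 40 steers together, which by itself favours a shared sign in the parts. The share with a shared sign over all tested miRNAs is not given, so this count has no background. The numbers called fell with the number of steers, to 13 in the 24 steers with an RFI group (3.19%), 4 in the 16 without (0.98%), 2 in low-RFI steers (0.49%) and 1 in high-RFI steers (0.245%).

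Angus, the third breed of the series, was set beside both in a fit of the 60 steers. For 35 of the 50 called miRNAs the Angus median lay between those of KC and Charolais, for 5 it lay beyond that of KC and for 10 beyond that of Charolais. These miRNAs were called for a gap between KC and Charolais in the same steers, which by itself favours an Angus median in between. Shares over all tested miRNAs are not given for these positions or for the Angus calls below, so the counts have no background. miR-215 measured 5648, 8631 and 10508 CPM in the lowest, median and highest Angus steer. In this fit its log2 fold change was -0.19 for Angus against Charolais (adjusted p = 0.0546) and -0.20 for KC against Angus (adjusted p = 0.0228). let-7f was higher in Angus (24666, 27456 and 42032 CPM) than in KC, with -0.32 for KC against Angus (adjusted p = 1.1e-05), and at 0.10 for Angus against Charolais (adjusted p = 0.279). Of the 50, 4 differed between Angus and Charolais and 11 between KC and Angus at an adjusted p-value under 0.05. These comparisons share steers with each other.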

How the data were processed

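Liver small RNA of 40 steers, 20 KC and 20 Charolais, was analysed from 1 library per steer. The authors deposited raw read counts per pair of mature miRNA and precursor. Per the labels and the study's methods, reads were trimmed with cutadapt 1.16, kept by length, cleared of other small RNAs, mapped with Bowtie 1.1.1 to UMD3.1 and counted with miRDeep2. Short reads that match several related miRNAs can be counted for each of them.

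Counts were averaged per mature miRNA over the pairs listed for both breeds, rounded, and tested with the quasi-likelihood method in edgeR 4.0.16 under R 4.3.3 (limma 3.58.1), with TMM normalization and Benjamini-Hochberg adjustment. CPM values are TMM-scaled. The filter kept miRNAs at 1 CPM or more in at least 10 steers. Groups followed the breed in the labels. p-values measure the spread between steers, some of which share a sire.

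On data simulated for this comparison over 408 miRNAs with 200 changed, 80% of the 1.5-fold and 97% of the 2-fold changes were found, and 4.32% of calls were unchanged miRNAs. The simulated steers were drawn independently of each other, without sires, and the number of changed miRNAs was set in advance. These shares therefore do not measure the errors made with steers that share a sire. Standard errors are the size of the log2 fold change divided by the root of the F statistic. Same-numbered steers were checked for pairing. Their deviations correlated at -0.173 to 0.304 (median -0.0396), over 0.1 in 3 of 20 pairs, so the numbers were not treated as pairs.

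Named are the 10 most abundant miRNAs, the 8 with the smallest p and the 5 with the largest fold (mean of at least 10 CPM) and the 5 most abundant among those called in each direction, and called members of the lists. Other called miRNAs, let-7g, miR-194, miR-10b, miR-450a and members named as not called were picked with their values in view. The comparison and the lists were chosen with earlier results of these data known. Alternatives covered the test (DESeq2 1.42.0 among them), scaling, filter, precursors, depth, steers, sire and leaving out each steer. A library total term and the omission of 2 Charolais libraries were added after seeing the data. Predicted miRNAs were not analysed here. Summaries and figures were made in Python 3.11.15 (pandas 2.3.3, numpy 2.4.6, matplotlib 3.10.9).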

Additional observations from a re-analysis of the deposited data

Results flagged for a closer look

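Counts in pairs of miRNA and precursor listed for KC alone lie outside the comparison, because Charolais has no such pairs. The median KC steer had 48520 counts in them (range 33516 to 73854), which was 0.812% of its counts (0.629% to 1.04%), and 51 of the 52 pairs held a count. With these pairs included, 74 of 413 miRNAs were called instead of 50 of 408.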

How the results depend on the processing

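Beside the 50 miRNAs called (15 higher and 35 lower in KC, 11 by more than 1.5-fold), the likelihood-ratio test called 59 (23 higher, 18 by more than 1.5-fold), the DESeq2 Wald test 61 (29 higher), library totals alone 47 (30 higher, 17 lower, 17 by more than 1.5-fold), summed precursors 54 (30 higher), all pairs as deposited 74 (41 higher, 29 by more than 1.5-fold), thinning to equal depth 34 (17 lower) and 10 counts in every steer 38 of 234 (22 lower, 1 by more than 1.5-fold). Alternatives with fewer steers or families had fewer calls. There were 13 in the 24 steers with an RFI group (8 higher, 5 lower, 4 by more than 1.5-fold), 4 in the 16 without (0 higher, 4 lower, 3 by more than 1.5-fold), 2 in low-RFI steers (1 higher, 1 lower, both by more than 1.5-fold), 1 in high-RFI steers (0 higher, 1 lower, 0 by more than 1.5-fold), and 3 both without the largest families and with counts summed per sire (0 higher, 3 lower, 2 by more than 1.5-fold in each). Sire as a random block gave 30 (9 higher, 21 lower), the library total as a term 17 (3 higher, 14 lower, 6 by more than 1.5-fold), and leaving out Charolais replicates 1 and 16 gave 40 (22 lower). The replicate block gave 46 calls (19 higher, 27 lower, 16 by more than 1.5-fold), and 1 of 20 KC steers correlated best with its own number. The cause of these shifts was not tested. Some alternatives also have fewer steers or miRNAs, and the part this plays was not separated from the rest.

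Without 1 steer, 37 to 56 miRNAs were called, 11 to 27 higher and 22 to 38 lower in KC, and 7 to 17 by more than 1.5-fold. The number higher moved by more than 1.5 times without any 1 of Charolais replicates 11, 13 and 16 and KC replicates 8 and 19, the number lower without any 1 of Charolais replicates 5, 6, 8 and 17 and KC replicates 8, 11, 15 and 19, and the number above 1.5-fold without any 1 of Charolais replicates 2, 5, 17 and 20 and KC replicates 2, 11 and 16. Of the 50, 30 were called in each of these 40 fits, and 0 changed sign. Over the 21 other alternatives 3 of the 50 changed sign, which were let-7a-5p without the largest families (0.01), miR-190a there (-0.07) and in low-RFI steers (-0.19), and miR-2284y with all pairs as deposited (2.17). The interaction gave 0 calls under each alternative run. Depth limits miRNAs below about 1.341 CPM, where 3 counts lie in the shallowest library.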
